A study of Homo sapiens with 3 samples.

Results

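The cells described here are human mesenchymal cells of blood vessel organoids in which RNA of the transcription factor TCF21 was detected and no UMI of the visceral mesoderm factors HAND1 or FOXF1 was sampled. They were chosen by their measured counts. A cell barcode with at least 1000 unique molecular identifiers (UMIs, each 1 captured RNA molecule), 500 or more genes and no more than 20% of UMIs from mitochondrial genes was a member when it had 1 or more UMIs of TCF21 and 1 or more of TMEM158, G0S2, TDO2 or PDE1A. It could hold no UMI of HAND1 or FOXF1, and UMIs of fewer than 3 of the 6 cell cycle genes MKI67, TOP2A, CDK1, UBE2C, BIRC5 and CENPF. This gave 1471 members among 23805 passing cells.

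The organoids derive from an established line of human embryonic stem cells, H1, into which a doxycycline-inducible NEUROD1-P2A-GFP cassette had been integrated by PiggyBac transposition. NEUROD1, a transcription factor, turns progenitors and stem cells into neurons. Day 45 organoids were collected in 3 groups: without induction, with 15 days of induction and with 45 days of induction, both induced groups at 1 µg/ml doxycycline. All groups received BDNF and NT-3, neurotrophic factors, from day 15. The labels do not say on which days the 15-day group received doxycycline, nor how many clones the engineered line held. Each group was a single 10x Genomics 3′ library from 5 or 6 pooled organoids taken apart with papain, so groups could not be tested against each other, and the intervals on shares, levels and folds between libraries cover counting error only. Differences between cell groups were tested across the 3 libraries, which also differ in induction.

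TCF21 is a basic helix-loop-helix transcription factor of embryonic mesenchyme. In the mouse it is needed for the mesenchyme of lung and kidney and for fibroblasts that come from the epicardium. HAND1, of the same protein class, and FOXF1, a forkhead factor, act in the lateral plate mesoderm that gives the muscle and connective tissue of gut and lung. G0S2 inhibits the main triglyceride lipase, TDO2 starts tryptophan breakdown along the kynurenine route, PDE1A is a calcium-activated phosphodiesterase, and TMEM158 is a membrane protein whose expression follows RAS signalling. On GRCh38 the genes of the rule lie at chr6:133889138-133895553 (TCF21, plus strand), chr3:45224466-45226278 (TMEM158, minus), chr1:209675420-209676388 (G0S2, plus), chr4:155854738-155920406 (TDO2, plus), chr2:182140036-182523192 (PDE1A, minus), chr5:154474972-154478264 (HAND1, minus) and chr16:86510527-86515418 (FOXF1, plus). GABRA2, an alpha subunit of the GABA-A receptor and a further marker proposed for these cells, lies at chr4:46248427-46475230 on the minus strand.

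The libraries held 49488425 to 64171327 UMIs in 5962 to 10765 barcodes, of which 86.6% to 89.6% passed, with a median depth per cell of 5306 UMIs in uninduced organoids, 7368 UMIs in the 15-day group and 5697 UMIs in the 45-day group. Between 13 and 33 barcode sequences were shared by any pair of libraries, and no member's barcode was a member in another library. NEUROD1 in all passing cells stood at 1.33 CPM (UMIs per 1000000 UMIs summed over the cells) in the uninduced library, where 74 of 77 UMIs lay in 1 cell, at 1.41 CPM at 15 days and at 42.7 CPM at 45 days. In members it stood at 0 CPM without induction (3 UMIs would be 0.806 CPM), at 0.467 CPM at 15 days and at 8.93 CPM at 45 days. NEUROD1 precedes GFP in the cassette, so 3′ reads of the cassette need not fall on NEUROD1, and these values check the labels only in part.

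Members made up 6.16% of passing cells without induction (546 of 8858, 95% Clopper-Pearson interval 5.67% to 6.69%). They made up 9.09% at 15 days (482 of 5303, 8.33% to 9.90%) and 4.59% at 45 days (443 of 9644, 4.18% to 5.03%). The share was highest at 15 days and lowest at 45 days, and the intervals did not overlap. The 15-day library was also the deepest, and a deeper cell is likelier to show each gene of the rule. With every cell thinned to 2000 UMIs the shares were 2.36% (201 of 8514, 2.05% to 2.71%), 3.37% (169 of 5019, 2.89% to 3.90%) and 1.54% (141 of 9140, 1.30% to 1.82%) in the same order of durations, with 344, 284 and 504 shallower cells left out. The order of the 3 libraries was the same at equal depth.

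**Figure D1:**
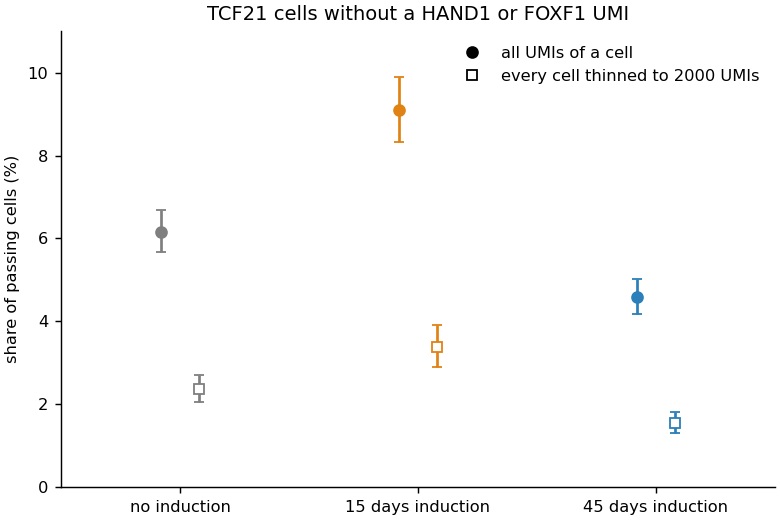
Share of passing cells that met the rule in each library (percent, y axis), with all UMIs of a cell (filled circles) and with every cell thinned to 2000 UMIs (open squares). Bars are 95% Clopper-Pearson intervals, and in both readings the 15-day library is highest and the 45-day library lowest.

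Free RNA in the droplets can give a cell a UMI of a gene that it does not express. Of cells with UMIs of 3 or more haematopoietic markers, which should lack TCF21, 1 of 98 met the rule without induction (1.02%, median 4956 UMIs), 2 of 122 at 15 days (1.64%, median 7856 UMIs) and 1 of 113 at 45 days (0.885%, median 6115 UMIs). Members themselves had median depths of 5823, 7573 and 6054 UMIs at no, 15 and 45 days of induction. Cells with 3 or more endothelial markers met the rule in 4.66%, 5.98% and 4.01% by rising duration (median 7520, 9096 and 7434 UMIs), and cells with 3 or more epithelial markers in 4.19%, 4.22% and 1.73% (median 8472, 9707 and 6879 UMIs). The share of passing cells that were members lay above the shares of these 3 marker groups in each library. Its interval overlapped those of the endothelial (3.42% to 6.19%) and epithelial groups (2.84% to 5.93%) without induction. At 45 days it overlapped those of the haematopoietic (0.0224% to 4.83%) and endothelial groups (2.59% to 5.91%). Cells with 3 or more neuron markers lay above the share of all passing cells in each library, at 16.0%, 10.5% and 4.97% (median 6772, 8350 and 6721 UMIs). So did cells with 3 or more mural markers, at 10.8%, 13.3% and 7.48% (median 7399, 8824 and 7122 UMIs). Cells with 3 or more liver secretory markers stood at 3.31%, 8.16% and 0%, the last of 4 cells. Thinned to 2000 UMIs, 1.43% of the endothelial-marker cells and 1.54% of all passing cells met the rule at 45 days. A count of simulated doublets nearby marked 11.5% of members without induction, 7.26% at 15 days and 14.2% at 45 days, against 8.19%, 4.77% and 8.62% of all passing cells.

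The first step of the rule, 1 or more UMIs of TCF21, was met by 14.4% of the uninduced passing cells, 18.7% of the 15-day cells and 9.26% of the 45-day cells. Of the cells that also had a second gene and were not cycling, 226, 163 and 80 were set aside for a UMI of HAND1 or FOXF1. A further 97, 54 and 40 cells without those factors were set aside as cycling. Many members lay close to the edge of the rule: 258, 210 and 227 had exactly 1 TCF21 UMI, and 104, 51 and 80 had exactly 1 TCF21 UMI and 1 UMI of a second gene. Just outside it, 121, 61 and 31 cells were set aside for a single UMI of HAND1 or FOXF1. At the cell cycle limit, 20, 9 and 15 members had 2 of the cycling genes, and 9, 7 and 7 cells with exactly 3 were left out.

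The UMIs of each cell were divided at random into 2 equal sets, cells were chosen on 1 set, and the genes of the rule were read in the other. Members chosen in this way held 24.6 CPM of HAND1 without induction (16.7 to 34.9, exact Poisson interval), 7.56 CPM at 15 days (3.62 to 13.9) and 15.6 CPM at 45 days (8.52 to 26.2). TCF21 cells chosen as having HAND1 or FOXF1 held 134.6, 228 and 262 CPM, and mesenchymal cells without TCF21 held 8.03, 2.30 and 3.00 CPM. Cells chosen as members thus held less HAND1 than those chosen as having HAND1 or FOXF1. Their intervals lay above those of the other mesenchyme without induction and at 45 days and overlapped at 15 days. Without induction their HAND1 was near the 27.4 CPM of all passing cells. A cell with such a UMI is no member when all its UMIs are used. The values thus belong to cells chosen on fewer UMIs, and members chosen on all UMIs hold no HAND1 UMI by the rule.

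FOXF1 gave the same order. Cells chosen as members held 23.8 CPM without induction, 17.4 CPM with 15 days and 10.0 CPM with 45 days. Cells chosen as having HAND1 or FOXF1 held 45.7, 99.7 and 40.3 CPM, and other mesenchyme held 3.03, 5.65 and 2.76 CPM. All passing cells held 9.08, 13.0 and 4.95 CPM, less than cells chosen as members in each library. At this lower depth, cells chosen for having no UMI of either factor still held some in their other UMIs. The label "without HAND1 or FOXF1" is therefore used here for cells with no UMI sampled, not for cells shown to lack these RNAs. TCF21 in the unused set was 250.2 CPM without induction, 314 CPM with 15 days and 285 CPM with 45 days in cells chosen as members. It was 27.0, 23.5 and 18.6 CPM in other mesenchyme.

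**Figure D2:**
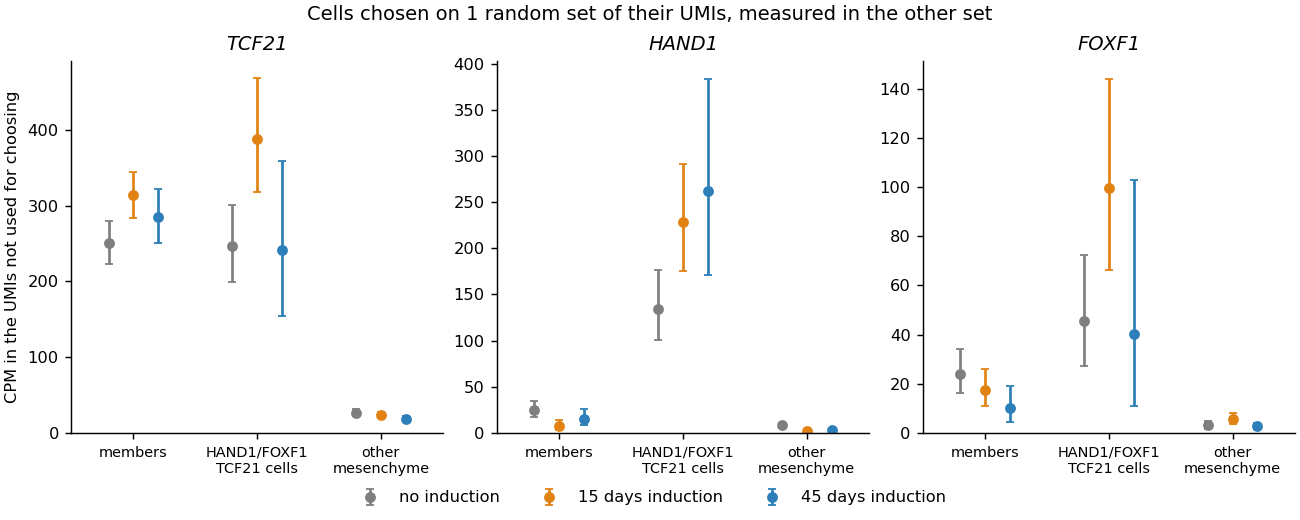
TCF21, HAND1 and FOXF1 (CPM, y axis, from 0) in the set of each cell's UMIs not used to choose it, coloured by library. Cells were chosen on the other set as members, TCF21 cells with HAND1 or FOXF1, or other mesenchyme. Bars are 95% exact Poisson intervals. In TCF21 the intervals of cells chosen as members and as HAND1/FOXF1 cells overlap in each library. In HAND1 and FOXF1 the values of cells chosen as members lie between those of the other groups, although members chosen on all UMIs hold none.

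The second genes of the rule differed in use between the libraries, as a description of the choice itself. PDE1A was detected in 67.4% of members without induction, 76.6% at 15 days and 78.1% at 45 days. G0S2 was detected in 30.6%, 51.0% and 26.6%, TDO2 in 31.5%, 10.8% and 11.1%, and TMEM158 in 23.3%, 12.4% and 21.4%. Most members had only 1 of the 4 genes (59.7%, 57.1% and 68.9%), and 7, 5 and 3 members had all 4. The 4 genes thus seldom met in the same cell at this depth, and TDO2 members came mainly from the uninduced library.

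Summed over members, TCF21 stood at 314 CPM without induction, 319 CPM with 15 days and 303 CPM with 45 days, nearly level across the libraries. TDO2 stood at 144, 41.5 and 39.2 CPM, and G0S2 at 108, 277 and 188 CPM. TMEM158 stood at 96.5, 34.8 and 128 CPM, and PDE1A at 178, 205 and 217 CPM. TDO2 was highest without induction and G0S2 at 15 days, and TMEM158 was lowest at 15 days. GABRA2, which the rule did not use, stood at 41.9 CPM without induction, 37.8 CPM with 15 days and 57.1 CPM with 45 days in members. In other mesenchyme it stood at 14.8, 26.1 and 15.8 CPM. It was higher in members in each library, with a log2 fold change of 1.29 and an adjusted p of 0.0194 by edgeR's quasi-likelihood test with the library as block. Against TCF21 cells with HAND1 or FOXF1, where it stood at 18.9, 43.7 and 60.5 CPM, the log2 difference of 0.30 did not pass the test (edgeR adjusted p = 0.755). The first of these calls was lost without the 45-day library and in cells thinned to 2000 UMIs. GABRA2 was put forward as a marker with earlier results of these data known, so its difference is no independent support.

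**Figure D3:**
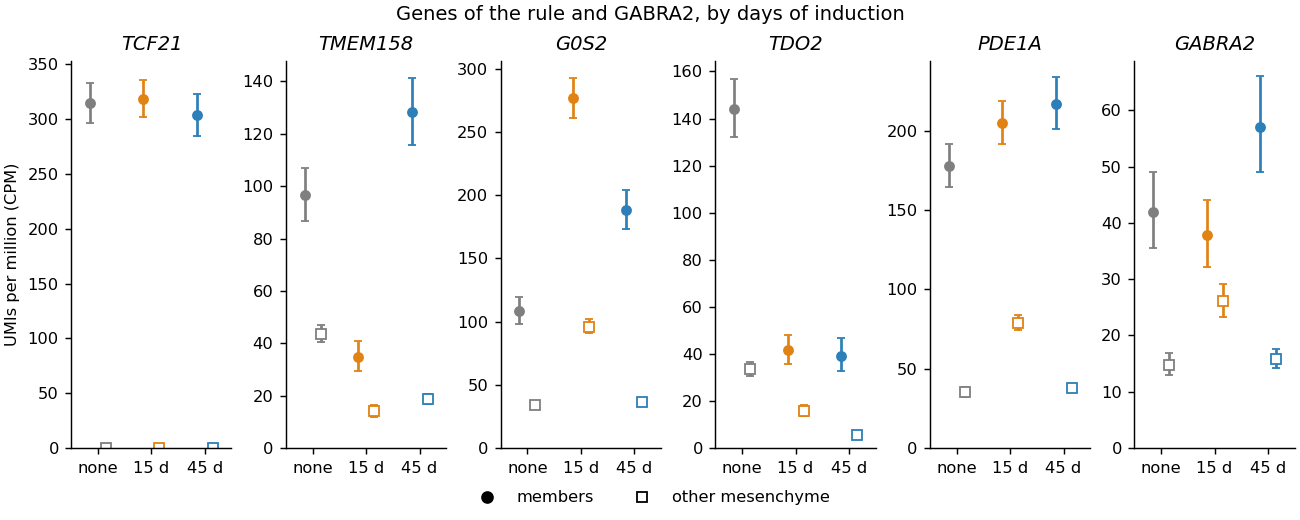
CPM (y axis, from 0, a scale for each gene) of TCF21, the second genes of the rule and GABRA2 in members (filled circles) and other mesenchyme (open squares), by days of induction. Bars are 95% exact Poisson intervals. TCF21 is 0 in other mesenchyme by its definition, the other rule genes are set in part by the choice of cells, and GABRA2 lies higher in members in each library.

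All 9 mesenchymal markers (PDGFRA, COL1A1, COL1A2, COL3A1, DCN, LUM, PRRX1, TWIST1 and VIM) reached 50 CPM in members of each library. They summed to 18440, 10000 and 10810 CPM in members by rising duration and to 17610, 7726 and 9747 CPM in all passing cells. Against other mesenchyme, by the edgeR test described below, COL1A1, COL3A1, DCN and LUM were higher in members and PRRX1, TWIST1 and VIM lower. Of 12 epicardial and mesothelial genes, WT1 stood at 11, 7.47 and 5.10 CPM in members, TBX18 at 0.537, 1.63 and 0.319 CPM, ALDH1A2 at 44.3, 85.2 and 65.0 CPM, and KRT19, a keratin that epithelia share, at 61.8, 136 and 16.9 CPM. The haematopoietic markers summed to 37.4 to 94.7 CPM, and MYF5, MYOD1, MYOG and PAX7 of skeletal muscle were at 0 in each library. Of the 9 endothelial markers 2 reached 50 CPM in each library, EMCN the highest, and the list summed to 391 to 491 CPM. Neuron markers summed to 560 CPM in members without induction, 2710 CPM at 15 days and 1163 CPM at 45 days, against 258, 3747 and 1567 CPM in all passing cells. Neuron RNA was lowest without induction and highest at 15 days in members and in the whole library, and between 11 and 12 members per library (2.20% to 2.49%) lay in the 5 clusters that had 2 or more markers of endothelial, blood, epithelial, liver or neuronal cells among their 10 leading genes. A further cluster led by S100A9, GABRP and CLDN4, genes of epithelia, held 3, 1 and 0 members and was not among these 5, and mural markers were not counted as another cell type.

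Members did not form a single cluster among the 20 that were built from all cells. A cluster led by TCF21, FOS, PLAT, TDO2 and CHODL held 50.5% of members without induction (276 cells), 18.7% at 15 days (90 cells) and 25.5% at 45 days (113 cells). A cluster led by G0S2, CDKN2B-AS1 and CDKN2A held 10.4%, 27.8% and 14.2%, and was the larger of these at 15 days. A cluster led by IGFBP2, ANKRD37 and GPI, genes of the response to low oxygen and of glycolysis, held 2.56%, 11% and 18.1%. The clusters were built with the genes of the rule, so these shares only describe where members lay. Other members lay in a cluster led by DLK1, COL15A1 and DCN (9.16%, 0% and 1.35%), one led by MMP9 and the mural genes MCAM and KCNJ8 (7.33%, 14.9% and 7.45%), and one led by CLDN11 and MEOX2 (0.366%, 4.98% and 11.5%). The mixture of states thus differed between the libraries.

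Members that shared the rule but entered it by different second genes were unlike in their matrix genes. Without induction, the 48 members whose only second gene was TDO2 held 4593 CPM of COL1A1, the main chain of type I collagen, against 1047 CPM in the 209 members whose only second gene was PDE1A. The collagen-binding proteoglycan DCN stood at 1569 CPM in the TDO2 members and 211 CPM in the PDE1A members, and LUM at 3078 CPM and 1046 CPM. COL15A1, a collagen of basement membrane zones, stood at 293 CPM and 4.16 CPM. The 28 members with TMEM158 alone held 2420 CPM of COL1A1, 872 CPM of DCN and 151 CPM of COL15A1, and the 41 with G0S2 alone held 1715, 689 and 99.0 CPM. For these genes, in the uninduced library, the PDE1A members were the lowest of the 4 groups and the TDO2 members the highest. With 15 days of induction only 6 members had TDO2 alone, and with 45 days 15, too few for a like comparison of TDO2 members. The order was not the same at 45 days. There the 25 members with TMEM158 alone held 1357 CPM of COL1A1 and 777 CPM of DCN. The 42 with G0S2 alone held 1002 and 174 CPM, the 15 with TDO2 alone 912 and 68.2 CPM. The 223 with PDE1A alone held 664 and 122 CPM. At 15 days COL1A1 stood at 334 CPM with TMEM158 alone, 591.5 CPM with G0S2 alone and 591 CPM with PDE1A alone.

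Members were next set against other mesenchyme, the 7799 non-cycling cells with PDGFRA and no UMI of TCF21, HAND1 or FOXF1 (2658, 1500 and 3641 by rising duration). The groups differ at once in TCF21, in the required second gene and in the PDGFRA condition, so a difference cannot be put down to TCF21. UMIs were summed per library and cell group, the genes of the rule and PDGFRA were left out of the counts, and edgeR's quasi-likelihood test was run with the library as block. Of 14497 genes tested, 483 (3.33%) were higher in members and 379 (2.61%) lower at an adjusted p under 0.05. Genes named on the higher side included the subunits of guanylate cyclase, a plasminogen activator and matrix genes, and the lower side held 12 transcription factors of limb mesenchyme. Median depth was close in the cell groups: 5823, 7573 and 6054 UMIs in members and 5022, 7203 and 5738 UMIs in other mesenchyme. No gene passed without the block. Without the 45-day library 128 genes passed, 125 of them among those above.

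CDKN2B-AS1, a long noncoding RNA antisense to CDKN2B, stood first. It stood at 59.7 CPM without induction, 91.0 CPM with 15 days and 71.1 CPM with 45 days in members, and at 9.76, 25.8 and 6.16 CPM in other mesenchyme (log2 fold change 2.58, edgeR adjusted p = 0.00332). Members were higher in each library; whether strand was used in counting is not given in the sources used here, so reads of the antisense partner could be included. CHODL, a membrane lectin, had a log2 fold change of 2.10 (edgeR adjusted p = 3.7e-04, 67.5, 159 and 67.9 CPM in members, 13.1, 36.4 and 19.2 CPM in other mesenchyme). PLAT, the tissue plasminogen activator, stood at 282, 439.7 and 361 CPM in members and 71.5, 183 and 82.1 CPM in other mesenchyme, a log2 fold change of 1.79 (edgeR adjusted p = 0.00182). DLK1, a membrane protein related to Notch ligands, stood at 1845, 932 and 892 CPM in members and 708, 284 and 228 CPM in other mesenchyme, a log2 fold change of 1.68 (edgeR adjusted p = 4.5e-04). For each of these genes the lowest library value in members was above the highest in other mesenchyme, so the groups did not overlap.

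Both subunits of soluble guanylate cyclase, the receptor of nitric oxide, were higher in members. GUCY1A1 stood at 105 CPM without induction, 51.8 CPM with 15 days and 70.8 CPM with 45 days in members, and at 35.4, 26.5 and 17.2 CPM in other mesenchyme (log2 fold change 1.53). GUCY1B1 stood at 72.8, 66.0 and 81.3 CPM in members and 21.6, 30.9 and 20.6 CPM in other mesenchyme (log2 fold change 1.61). The glutamate receptor subunit GRIA4 (log2 fold change 1.90), the collagen-binding integrin subunit ITGA1 (1.30), IGDCC3 (1.30), the keratin KRT18 (1.38) and the nuclear receptor NR2F2 (1.28), known from mesenchyme and veins, were also higher. STMN2, a microtubule regulator best known from neurons, had a log2 fold change of 1.25. All these passed at adjusted p-values of 0.00185 to 0.0112 by edgeR, and GRIA4, KRT18 and NR2F2 did not pass without the 45-day library.

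Of 15 factors of limb mesenchyme tested, none was higher and 12 were lower in members than in other mesenchyme. The median log2 fold change was -1.54, against -0.01 over all genes tested. PRRX1, a homeobox gene of limb and craniofacial mesenchyme, stood at 80.4 CPM without induction, 72.1 CPM with 15 days and 77.5 CPM with 45 days in members, against 298, 195 and 374 CPM in other mesenchyme (log2 fold change -1.86, edgeR adjusted p = 0.00150). PITX1, which marks the hindlimb, stood at 106, 23.1 and 53.9 CPM in members and 282, 66.4 and 174 CPM in other mesenchyme (-1.54). TWIST1, a factor that keeps mesenchyme undifferentiated, stood at 198, 89.4 and 133 CPM in members and 691, 157 and 399.8 CPM in other mesenchyme (-1.42). In each library members were the lower group for all of these. MSX1 (-1.54), TBX4 (-2.37) and LHX9 (-3.15) were lower as well. Without the 45-day library 5 of 14 limb factors passed, PRRX1, PITX1, MSX1, MSX2 and LHX9, all lower. Members were not called lower in any limb factor tested against the TCF21 cells with HAND1 or FOXF1, a comparison described below. Fewer limb factors were tested there, and TWIST1 and SHOX2 were called higher in members.

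**Figure D4:**
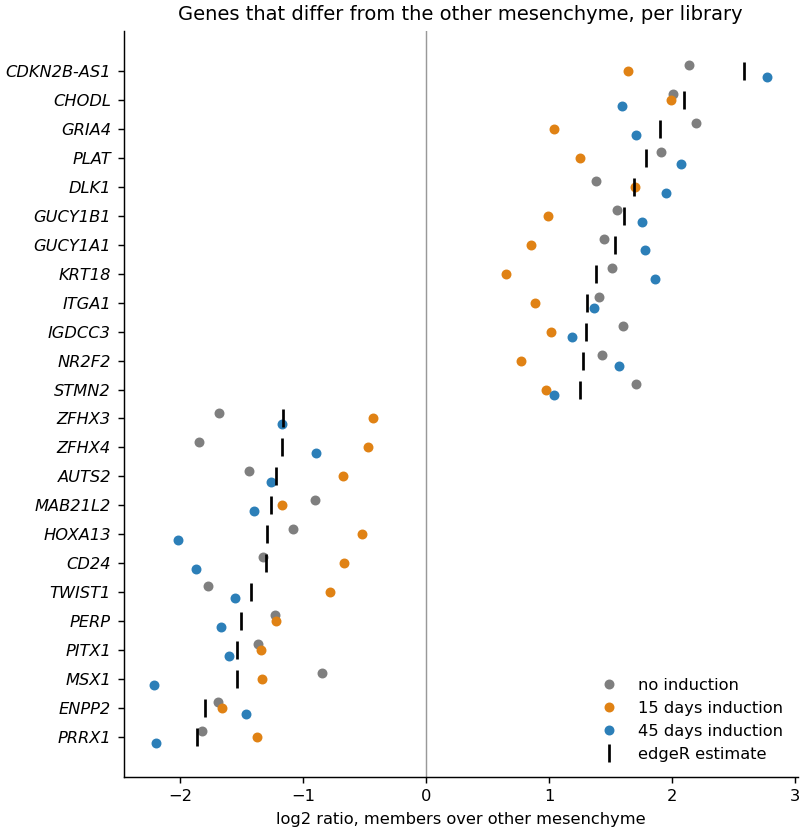
Log2 ratio of members over other mesenchyme (x axis, 5 CPM added to each side) in each library (coloured points) for the 12 genes with the largest log2 fold changes in each direction among those called with 50 CPM or more in the higher group of each library, with edgeR's estimate (black tick, made without the 5 CPM, so it can lie outside the points). All points of a gene lie on the same side of 0.

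Among the HOX genes, which mark position along the body axis, those called split by cluster as well as by number. No HOXA, HOXC or HOXD gene was called higher. Of 31 tested, 8 were higher in members and 5 lower. The 8 were HOXB2, HOXB3, HOXB4, HOXB5, HOXB6, HOXB7, HOXB8 and HOXB9, all of the HOXB cluster. HOXB9 stood at 21.8, 25.0 and 20.7 CPM in members and 6.64, 8.76 and 4.93 CPM in other mesenchyme (log2 fold change 1.75, edgeR adjusted p = 0.00185). The 5 lower were HOXA10, HOXA13, HOXD10, HOXD11 and HOXD13, genes of the posterior trunk and distal limb. HOXD13 stood at 2.69, 5.13 and 6.70 CPM in members and 17.2, 14.6 and 43.6 CPM in other mesenchyme (log2 fold change -2.30, edgeR adjusted p = 0.00284). HOXA10 overlapped between the groups across libraries and differed within each, with a log2 fold change of -0.46. Without the 45-day library HOXB9 alone passed, and with thinned cells 2 HOX genes were higher and 3 lower.

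Parts of the matrix and mural lists were higher in members. Of 16 genes of fibrillar collagen and matrix, 8 were higher and none lower: COL1A1, COL3A1, COL6A2, DCN, LUM, FBN1, SPARC and COL15A1 (median over the list 0.29). COL1A1 stood at 2419 CPM without induction, 681 CPM with 15 days and 866 CPM with 45 days in members and at 1528, 383 and 472 CPM in other mesenchyme (log2 fold change 0.79, edgeR adjusted p = 9.8e-04). Of 11 basement membrane genes 3 were higher (COL4A1, COL4A2 and NID1). Of 10 markers of mural cells, the contractile cells around vessels, 5 were higher and none lower, among them the channel subunit KCNJ8 (40.6, 69.3 and 55.8 CPM in members, 16.7, 29.7 and 28.1 CPM in other mesenchyme, log2 fold change 1.16) and the receptor PDGFRB (272, 278.5 and 269 CPM against 210.0, 214 and 209 CPM, log2 fold change 0.37). RGS5, a pericyte marker, did not pass (log2 0.10, edgeR adjusted p = 0.761). Without the 45-day library COL1A1 and COL3A1 of the matrix list, ACTA2 and KCNJ8 of the mural list and none of the basement membrane list passed. With thinned cells the DCN log2 fold change was -0.15 and did not pass.

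Lists of other mesoderm gave mixed counts. Of 13 visceral mesoderm factors other than those of the rule, NKX2-3 and NKX3-2 were higher (log2 fold changes 1.72 and 1.62) and TBX3 lower (-0.67). NKX3-2, which acts in the splenic and axial mesenchyme of the mouse, stood at 42.7, 48.1 and 74.9 CPM in members and 9.05, 29.7 and 18.0 CPM in other mesenchyme. Of 8 paraxial mesoderm factors 4 were higher (TCF15, FOXC1, FOXC2 and NKX3-2) and 2 lower (MEOX2 and PAX9). Of 11 pharyngeal and cranial factors 3 were lower (LHX2, EBF2 and EBF3) and none higher. WT1, the epicardial and kidney factor, was higher with a log2 fold change of 2.24 but at levels of 5.10 to 11 CPM in members. Of the visceral, paraxial and pharyngeal factors, TBX3, MEOX2 and LHX2 alone passed without the 45-day library, all lower.

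The signalling lists differed in direction. Of 14 ERK feedback genes SPRED2, EGR1 and IER3 were higher in members and none lower, and of 17 genes of BMP and TGF-beta signalling ID3 and ID4 were higher and BMP5 and BMP7 lower. Of 21 genes of WNT feedback and antagonism, 7 were lower (NKD2, DKK1, DKK2, SFRP2, WIF1, RSPO2 and LGR5) and FRZB and RSPO3 higher. The secreted WNT inhibitor SFRP2 stood at 30.6, 2.80 and 18.2 CPM in members and 165, 21.6 and 59.7 CPM in other mesenchyme (log2 fold change -2.25). Of 13 retinoid genes 6 were lower (ALDH1A3, CRABP1, CRABP2, RARG, CYP26A1 and CYP26B1) and none higher. Of 9 GABA-A subunits tested GABRA2 and GABRB1 were higher, the second at 5.64 to 11.2 CPM. None of 7 genes of lipolysis and lipid droplets passed, and of 15 phosphodiesterases PDE7A was lower and none higher. Without the 45-day library SFRP2, WIF1 and FRZB of the WNT list and CRABP1 and CYP26B1 of the retinoid list passed, and no GABA-A subunit did. Markers of other cells differed too: 5 of 9 neuron markers were higher in members (median log2 0.88) and 4 of 5 liver secretory markers lower (median -2.67). With the clusters led by markers of other cell types left out of both groups, STMN2 was higher and NEFL lower, no liver marker passed, and 1169 genes differed in all. Other mesenchyme was defined by PDGFRA, and with members that also had a PDGFRA UMI 804 genes differed, 666 of them among the 862, and STMN2 was the neuron marker that passed.

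A further comparison used the 469 TCF21 cells with HAND1 or FOXF1 (226, 163 and 80 by rising duration). They met the same conditions on TCF21, second genes and cycling. Of 11933 genes tested, 123 (1.03%) were higher in members and 111 (0.930%) lower, by edgeR with the library as block. Without the uninduced library 450 genes passed, 192 of them among these, 153 passed with marked doublets removed, and none without the block. Neuronal and secreted-signal genes led the higher side and the LIM-domain gene FHL2 the lower. FHL2, a cofactor known from heart and smooth muscle, stood at 76.6 CPM without induction, 111 CPM with 15 days and 143 CPM with 45 days in members, and at 122, 441 and 484 CPM in the HAND1/FOXF1 cells (log2 fold change -1.50, edgeR adjusted p = 5.3e-04). Members were lower in each library, with log2 ratios of -0.64, -1.95 and -1.72 by rising duration. FOXF2, the close relative of FOXF1, stood at 6.18, 9.34 and 4.14 CPM in members and 17.5, 57.0 and 25.7 CPM in the HAND1/FOXF1 cells (log2 fold change -2.24, edgeR adjusted p = 5.3e-04).

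Paraxial factors were higher in members here, 3 of 6 tested. FOXC1, a forkhead factor of somites and vessels, stood at 21.2, 65.1 and 46.5 CPM in members and 5.67, 13.3 and 7.33 CPM in the HAND1/FOXF1 cells (log2 fold change 2.23, edgeR adjusted p = 2.3e-04). FOXC2 (1.37) and MEOX2 (0.97) passed as well. TBX2 had a log2 fold change of 1.14 (199, 309 and 276 CPM in members, 69.5, 176 and 130 CPM in the HAND1/FOXF1 cells) and ISL1 one of 1.34, so the list of visceral factors did not move in 1 direction. Among secreted factors, IGF1 (log2 fold change 1.48), the WNT enhancer RSPO3 (1.29) and PTN (1.15) were higher. The retinoic acid synthase ALDH1A2 stood at 44.3, 85.2 and 65.0 CPM in members and 12.3, 35.9 and 11 CPM in the HAND1/FOXF1 cells (1.67, edgeR adjusted p = 5.4e-04), although against other mesenchyme it did not pass.

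The HOXB genes that were higher in members than in other mesenchyme were lower in members than in the HAND1/FOXF1 cells in part: 5 of 29 HOX genes passed, HOXB2, HOXB3, HOXB4, HOXB6 and HOXB8, and none was higher. Without the 15-day library HOXB2 and HOXB3 alone passed. HOXB2 stood at 30.9, 44.8 and 35.4 CPM in members, 51.1, 76.5 and 80.7 CPM in the HAND1/FOXF1 cells and 23.1, 32.5 and 21.4 CPM in other mesenchyme. Members were the middle group in each library. The matrix genes DCN, LUM and POSTN were lower in members than in the HAND1/FOXF1 cells, 3 of 16 tested. DCN stood at 669, 91.3 and 203 CPM in members and 1306, 219 and 205 CPM in the HAND1/FOXF1 cells (log2 fold change -0.79, edgeR adjusted p = 0.0197). The direction of the matrix list changed with thinning: none was lower and COL1A1, COL1A2, COL3A1, FN1 and SPARC were higher, 5 of 15 tested, with DCN at 0.29. Thinning changes depth and also chooses the cells anew. It left 201, 169 and 141 members and 25, 42 and 20 HAND1/FOXF1 cells by rising duration, and the cause of the change was not tested. Without the uninduced library LUM and DCN were lower and FN1, SPARC and COL1A2 higher. Targets of BMP signalling split, with ID1, ID3 and ID4 higher and ID2 lower, of 17 tested. Neuron markers were higher for 6 of 9, with STMN2 at 416, 964 and 547 CPM in members and 123, 303 and 125 CPM in the HAND1/FOXF1 cells (1.83). Without the clusters led by markers of other cell types, STMN2 and NEFM alone of 7 neuron markers passed.

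Within members, the libraries were compared by size of difference alone. A gene counted when it had at least 50 CPM in 1 of the summed libraries and was at least 2-fold apart after 5 CPM were added to each side. With 45 days of induction against none, 38 of 2904 genes (1.31%) were higher and 39 (1.34%) lower. With 15 days against none, 66 of 2921 (2.26%) were higher and 41 (1.40%) lower, or 52 higher and 54 lower when scaled by the median of ratios, which shifts that comparison by 0.11 on the log2 scale. A gene can reach this floor through the library in which it is high, so gene lists are given over every member with no floor. Counted in that way, 0.703% of 19201 genes were higher and 0.490% lower at 45 days against none, 1.39% of 19683 higher and 0.498% lower at 15 days against none, and 0.188% of 19647 higher and 0.407% lower at 45 against 15 days. Both comparisons share the uninduced library, so their values are given side by side and their likeness is no result. With 45 against 15 days, 10 of 2973 (0.336%) were higher and 25 (0.841%) lower.

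Many matrix genes were lower with induction. COL1A1 in members stood at 2419 CPM without induction, 681 CPM with 15 days and 866 CPM with 45 days, a log2 ratio of -1.48 at 45 days and -1.82 at 15 days against none. LUM stood at 1769, 411 and 532 CPM (3.32-fold lower at 45 days, 95% counting interval 3.15 to 3.51, and 4.30-fold lower at 15 days, 4.08 to 4.54). DCN stood at 669, 91.3 and 203 CPM (3.29-fold lower at 45 days, 3.02 to 3.60, and 7.33-fold lower at 15 days, 6.59 to 8.17). Of all 16 collagen and matrix genes, 9 were at least 2-fold lower at 45 days and ELN, the elastin gene, was higher, with a median log2 ratio of -1.10 against 0.089 over all genes. At 15 days 8 of 16 were lower and none higher (median -0.98 against 0.071). Other mesenchyme had list medians of -1.15 at 45 days and -0.86 at 15 days.

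The clusters were built from the same expression, and the one led by DLK1, COL15A1 and DCN holds matrix-rich cells apart. Matrix differences within another cluster can be smaller for that reason alone. Several were smaller among the members of the cluster led by TCF21 and FOS. There COL1A1 had log2 ratios of -0.17 at 45 days and -0.04 at 15 days against none, LUM -0.42 and -0.31, and DCN 0.18 and -0.22. COL6A3 still had -0.89 and -0.58 there (-1.15 and -1.25 in all members), COL14A1 had -1.01 at 15 days, and EGFL6, a secreted matrix protein, had -1.50 and -1.14. Among PDE1A-only members LUM still stood at 1046 CPM without induction, 304 CPM with 15 days and 364 CPM with 45 days. COL15A1 in all members stood at 123, 5.37 and 23.3 CPM, and EGFL6 at 73.9, 0.700 and 1.59 CPM, with 47 cells holding EGFL6 without induction, 3 at 15 days and 2 at 45 days. Other genes were lower within that cluster too. APCDD1, a WNT inhibitor, stood at 162, 28.5 and 46.9 CPM in members, with log2 ratios of -1.69 at 45 days and -2.32 at 15 days in all members and -1.91 and -2.43 within that cluster. The chemokine CXCL14 stood at 602, 95 and 186 CPM, with log2 ratios of -1.67 and -2.60 in all members and -1.45 and -2.08 within the cluster.

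**Figure D5:**
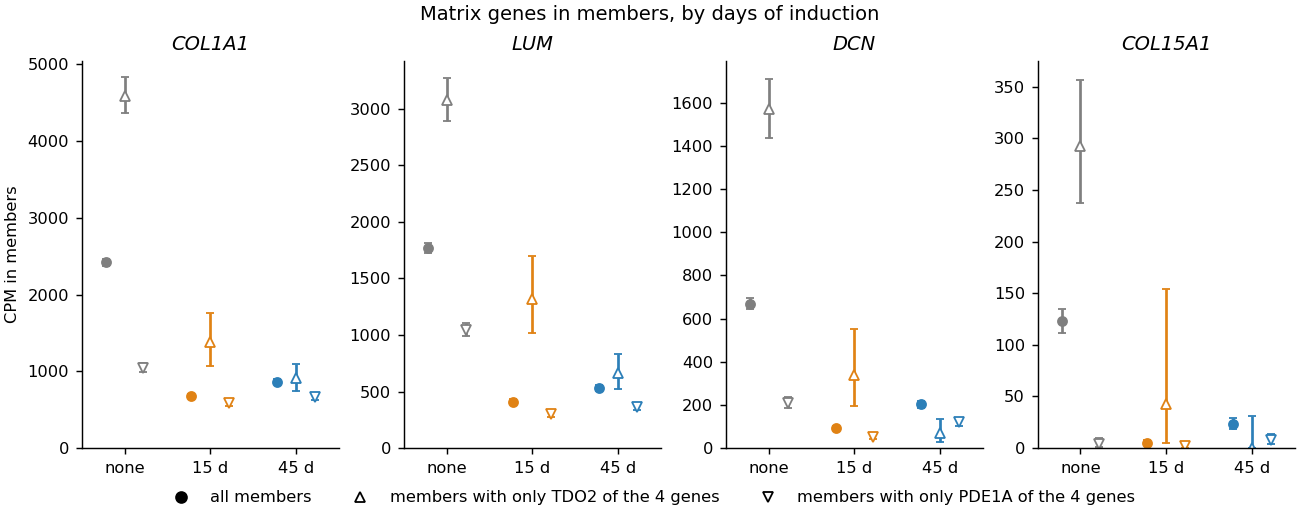
CPM (y axis, from 0, a scale for each gene) of COL1A1, LUM, DCN and COL15A1 by days of induction in all members (filled circles) and in members whose only second gene was TDO2 (upward triangles) or PDE1A (downward triangles). Bars are 95% exact Poisson intervals, wide at 15 and 45 days for TDO2, where 6 and 15 cells remained. In all members the 4 genes are highest without induction, and there the TDO2 members lie above the PDE1A members.

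Genes of the low-oxygen response were among those higher with 45 days of induction. GPI, a glycolytic enzyme, stood at 108 CPM without induction, 187 CPM with 15 days and 365 CPM with 45 days, 3.38-fold higher at 45 days than without induction (3.02 to 3.80). Of 14 hypoxia and glycolysis genes, with 45 days ENO1, PDK1, VEGFA and ANKRD37 passed 2-fold upwards and no gene downwards (list median 0.86 against 0.089 over all genes). With 15 days ANKRD37 and EGLN3 did (median 0.70). PDK1, a kinase that keeps pyruvate out of mitochondria, stood at 19.1, 33.8 and 64.4 CPM, and VEGFA, the vessel growth factor, at 60.7, 105.0 and 145 CPM. Other mesenchyme had list medians of 0.56 at 45 days and 0.74 at 15 days. Within the cluster led by TCF21 and FOS the ratio at 45 days against none was 1.03 for GPI, 0.59 for PDK1 and 0.49 for VEGFA on the log2 scale.

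MEOX2, a homeobox gene of somites and vessels, stood at 16.4 CPM without induction, 62.5 CPM with 15 days and 82.2 CPM with 45 days, 5.02-fold higher at 45 days than without induction (3.78 to 6.75). It was found in 46, 138 and 127 members by rising duration, so its level did not rest on single cells. THBS4, a matrix glycoprotein, stood at 18.3, 78.0 and 81.6 CPM, and the tight junction gene CLDN11 at 31.7, 53.7 and 119 CPM. ELN stood at 16.4, 20.8 and 59.0 CPM. Within the cluster led by TCF21 and FOS the log2 ratios at 45 days against none were 1.79 for MEOX2, 1.63 for THBS4, 1.33 for CLDN11 and 1.37 for ELN, so these differences were present there as well. Other mesenchyme held MEOX2 at 39.4, 181 and 192 CPM.

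Of 10 mural markers TAGLN, ACTA2 and RGS5 were at least 2-fold lower at 45 days than without induction and none was higher. Over all genes with no floor 0.490% were lower. The list as a whole was nearly level, with a median log2 ratio of -0.068 in members. That median was 0.089 over all genes, and -0.081 for the list in other mesenchyme. TAGLN, an actin-binding protein of smooth muscle, stood at 163 CPM without induction, 47.4 CPM with 15 days and 29 CPM with 45 days, 5.63-fold lower at 45 days than without induction (4.51 to 7.10). ACTA2 stood at 111.5, 63.5 and 44.0 CPM and RGS5 at 65.8, 76.6 and 29.6 CPM. PDGFRB was nearly level at 272, 278.5 and 269 CPM, and at 15 days TAGLN alone was 2-fold lower than without induction. A single cell held 28.9% of the uninduced TAGLN UMIs. TDO2, which helped choose the members, was 3.67-fold lower at 45 days than without induction (3.01 to 4.51).

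The 15-day library was set apart by neuronal RNA in members. NEFL, a neurofilament gene, stood at 9.41 CPM without induction, 508 CPM with 15 days and 174 CPM with 45 days. Its log2 ratio at 15 days against none was 5.15 in all members and 5.38 with marked doublets removed. It was 1.87 with thinned cells and 1.67 without the clusters led by markers of other cells. At 45 days against none the ratio was 3.64 in all members, 1.18 with marked doublets removed and 0.91 without those clusters. Of all 10 neuron markers 9 were at least 2-fold higher at 15 days than without induction and 7 at 45 days. Over all genes with no floor the shares were 1.39% and 0.703%. The list median log2 ratio in members was 2.89 at 15 days and 1.79 at 45 days (0.071 and 0.089 over all genes). In other mesenchyme it was 1.57 and 1.06, so a rise of neuronal RNA was not particular to members. A few cells gave much of this RNA: the highest single member held 32.6% of the NEFL UMIs at 15 days and 86.3% at 45 days. Of cells with UMIs of 3 or more neuron markers, 16.0% met the rule without induction, 10.5% at 15 days and 5.0% at 45 days, and 30.1% of members at 15 days were such cells. The part of free neuronal RNA in these values was not tested.

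DKK1 and part of the ERK feedback list were also higher at 15 days. DKK1, a secreted WNT inhibitor, stood at 38.4 CPM without induction, 239 CPM with 15 days and 53.2 CPM with 45 days, 6.22-fold higher at 15 days than without induction (5.22 to 7.46). Of 15 ERK feedback genes 5 were higher than without induction and none lower, ETV4, ETV5, DUSP6 (27.9, 78.9 and 32.8 CPM), SPRY2 (82.0, 210 and 164 CPM) and SPRY4 (29, 79.1 and 43.7 CPM), the last 3 of them inhibitors that the pathway itself induces. Of 23 genes of WNT feedback and antagonism 3 were higher, DKK1, DKK3 and LGR5, and 6 lower, among them APCDD1. Of 11 paraxial factors MEOX2, FOXC1 and FOXC2 were higher and none lower. At 15 days against none the ERK list had a median log2 ratio of 0.53 in members and 0.95 in other mesenchyme. The paraxial list had 0.26 and 0.78, and the WNT list -0.28 and -0.15. The ERK and paraxial shifts were thus not particular to members. FOXC1 stood at 21.2, 65.1 and 46.5 CPM. Members within a cluster led by DKK1, ITM2A and LHX2 made up 9.54% of the 15-day members, 2.93% at 45 days and none without induction (0 of 546), and the DKK1 log2 ratio within the cluster led by TCF21 and FOS was 0.51.

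Between 45 and 15 days of induction, few genes were higher at 45 days. NUPR1, a stress-induced chromatin protein, stood at 127 CPM at 45 days and 26.8 CPM at 15 days (4.72-fold higher, 3.82 to 5.85), with 59.4 CPM in uninduced members. ASPN, a small leucine-rich proteoglycan, stood at 75.9 CPM at 45 days and 19.4 CPM at 15 days (3.92-fold higher, 3.04 to 5.09), and GAS1 at 74.0 CPM and 29.2 CPM. TMEM158, which helped choose the members so that its level is set in part by the rule, was 3.68-fold higher at 45 than at 15 days (3.05 to 4.48). All 5 liver secretory markers and 7 of 10 neuron markers were among those lower at 45 days. AFP, the fetal serum protein, stood at 0.638 CPM at 45 days and 114 CPM at 15 days, and TTR at 0 CPM (3 UMIs would be 0.956 CPM) and 97.6 CPM. Liver secretory markers summed to 5.10 CPM at 45 days and 356 CPM at 15 days in members, and to 7.92 CPM and 2694 CPM in all passing cells. A single 15-day member held 70.8% of AFP and 80.1% of TTR, so these differences rest on few cells.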

How the data were processed

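Per the labels, cells were loaded on the 10x Genomics Chromium with 3′ v3 chemistry. Per the submitters' processing notes Cell Ranger 3.0.0 and the GRCh38 build were used, and the matrix headers name software version 3.0.1. The authors deposited, per library, UMI counts per gene and barcode for 33538 gene identifiers, not normalized. Filters were those of the rule, and the mitochondrial share used 13 genes. UMIs were summed per library and cell group and expressed as CPM. Share intervals are Clopper-Pearson, level intervals exact Poisson, and fold intervals exact conditional binomial, all at 95% and covering counting error only. No count of 0 limits a level below 3 UMIs of the total.

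Members and gene lists were chosen with earlier results of these data known. Members were set against each cell group with edgeR 4.0.16 (glmQLFit, glmQLFTest, filterByExpr, Benjamini-Hochberg over all genes tested), with library as block, since both sums of a pair come from the same organoid pool. The labels give 1 library per group, so p-values measure the spread over 3 libraries of unlike induction. Genes named between libraries were the 10 per direction with the largest log2 ratio among those past 50 CPM and 2-fold with at least 100 UMIs over both. Genes named between cell groups were the 12 per direction with the largest fold change among those called with the same direction in each library and at least 50 CPM in the higher group of each. List genes were named besides, and a few genes of the lists and of the named sets are not reported here and were left out of the counts over them. Clusters (Leiden, resolution 1.0, 30 components, 2000 variable genes, scanpy 1.11.5) served description only. Doublets were marked by simulated neighbours at 0.8% per 1000 barcodes and kept, with removal as an alternative. Statistics ran in Python 3.11.15, scipy 1.17.1 and R 4.3.3, and the scripts were tested on simulated data. Alternatives were DESeq2 1.42.0, other floors, scalings, filters, thinning and leaving out each library.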

Additional observations from a re-analysis of the deposited data

Results flagged for a closer look

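GNRH2 moved in opposite directions in members and in other mesenchyme. With 15 days of induction against none its log2 ratio was -2.80 in members and 1.74 in other mesenchyme, and the difference between these was not tested. Members held 16.1 CPM at 15 days and 142 CPM without induction, and other mesenchyme held 160 CPM at 15 days and 44.5 CPM without induction. A single uninduced member held 84.1% of the GNRH2 UMIs of its library's members.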

How the results depend on the processing

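Shares of members at no, 15 and 45 days of induction were 2.36%, 3.37% and 1.54% with cells thinned to 2000 UMIs, 3.25%, 5.13% and 2.24% with 2 or more TCF21 UMIs, 3.80%, 5.66% and 2.28% with PDE1A not accepted, 5.38%, 8.15% and 4.14% without the cell filter, and 6.73%, 11.7% and 5.14% without clusters led by other types' markers. The 15-day library was highest under each of these. Of genes at least 2-fold apart (77 at 45 days against none, 107 at 15 days against none, 35 at 45 against 15 days), a floor of 20 CPM left 148, 230 and 72, no floor 229, 371 and 117, and thinning 244, 214 and 196, the last from 141 to 201 cells. Weighting cells equally gave 62 at 15 days against none.

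For members against other mesenchyme (862 genes by edgeR), DESeq2 called 553, no filter on low counts 1929 and thinning 224. For members against HAND1/FOXF1 cells (234 genes), DESeq2 called 68, no filter 501, thinning 68 and removal of doublets 153. Without the library block, which drops the pairing of both sums of a library, edgeR called 0 genes in both, with 1527 (10.9%) and 709 (6.22%) at an unadjusted p under 0.05. Leaving out a library in turn gave 128 to 988 and 241 to 450 genes. The lowest of the first was without 45 days of induction and the highest of the second without the uninduced library.

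Of 464 values of named genes between libraries, 406 kept direction and stayed 2-fold apart, 46 fell under 2-fold and 12 reversed. At 45 days against none these were, in the TCF21 and FOS cluster, ENO2 (-0.26), COL15A1 (0.027) and DCN (0.18). At 15 days against none they were NEFM thinned (-0.081), GNRH2 without other types' clusters (0.11) and, in the TCF21 and FOS cluster, NEFM (-0.11), GAP43 (-0.0016), ITM2A (-0.19) and GNRH2 (0.44). At 45 against 15 days they were MMP9 thinned (-1.14) and without the DLK1 cluster (-0.48), and NRN1 without other types' clusters (0.11). Of 1621 values of genes called between cell groups, 452 lost the call, 172 of them without the block and 85 without the 45-day library, and 15 reversed, none of which passed. Against other mesenchyme these were, thinned, AFP (0.19), ALB (0.58), APOA2 (0.19), COL4A1 (-0.0078), DCN (-0.15), GAP43 (-0.71) and PRPH (-0.31), without other types' clusters, ALB (0.14), APOA2 (0.18) and PRPH (-0.0074), and in members with PDGFRA, GAP43 (-0.19), INA (-0.67) and PRPH (-0.71). Against HAND1/FOXF1 cells they were APOA1 (-0.81) and DCN (0.29), both thinned. Removal of clusters or of states and the PDGFRA condition on members were chosen after seeing the data; the cause of these changes was not tested.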
